A study of Mus musculus with 12 samples.

Results

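The apical stretch of the tonotopic axis was examined by comparing the apex of the mouse cochlea with its middle at postnatal day 8 (P8). The comparison used 4 of the 12 arrays of the series, 2 from the apex and 2 from the middle, and the other 8 arrays (the P8 base and the 3 regions at P0) entered the same fit. All 12 RNA pools came from wild-type pups on the C57BL/6 background that received no treatment. Around 80 temporal bones were dissected at each age in each of 2 dissection sets, named by year in the titles and called set 1 and set 2 here. The otic capsule was removed, and the remaining tissue, which holds the organ of Corti, the spiral limbus and the lateral wall together, was cut into 3 equal pieces that were pooled by region. The apex and the middle of 1 set are thus pieces of the same cochleae, and each array measures a pool of many animals. Of 19938 genes with 1 symbol on the array, 16306 were tested, those whose group mean exceeded a log2 signal of 6 in any of the 6 groups. A difference is given on the log2 scale as apex minus middle, the mean of the 2 sets with its standard error (SE), so that a positive value means a higher signal in the apex.

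The cochlea is a coiled duct in which position sets the sound frequency that a hair cell responds to, with high frequencies at the base and low frequencies at the apex. Along its length lies the organ of Corti, in which hair cells and supporting cells sit on the basilar membrane and under the tectorial membrane, an acellular gel that deflects the stereociliary bundles when sound moves the partition. The lateral wall carries the stria vascularis, whose marginal, intermediate and basal cells produce the potassium-rich endolymph and its electrical potential. In neonatal mice hair cells mature from the base towards the apex, while both mechanical structures change their dimensions along the duct.

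The 12 arrays had close distributions, with median log2 signals of the tested genes between 8.02 and 8.19. Across genes, the deviations of set 2 from set 1 were nearly shared by the P8 apex and the P8 middle (r = 0.92 over 16306 genes, which are not independent replicates), and less so between ages (r = 0.54 to 0.75). Markers of the expected cell types were measured: 24 of 26 hair cell genes, 25 of 27 supporting cell and prosensory genes and 14 of 14 genes of strial intermediate cells and melanocytes passed the filter on low signals. Genes of tissue outside the cochlear duct also passed it, with 10 of 16 for bone, 8 of 9 for tendon, 17 of 18 for skeletal muscle and 4 of 10 for red blood cells. Over all genes 16306 of 19938 passed it, 282 of them with means no higher than 6 in both the P8 apex and the P8 middle. The mean log2 level of the 10 bone genes was 9.01 and 8.96 in the 2 middle arrays, and 8.85 and 8.28 in the 2 apical arrays, so that the apical array of set 2 was the lowest. In pooled tissue, fewer cells of a type and less RNA per cell cannot be told apart.

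Two-sided tests of the P8 apex against the P8 middle found 2 genes with a higher signal in the apex, 0.0123% of the genes tested, and none with a higher signal in the middle (0%). They are Tecta and Fst. The call needed a Benjamini-Hochberg adjusted p below 0.05 in limma's moderated test and at least a 1.5-fold difference, with the dissection set as a block. Without the block no gene passed (lowest adjusted p = 0.14). When the block was instead the pool of cochleae that the 3 regions of 1 age and set share, 28 genes (0.172%) passed as higher in the apex and 7 (0.0429%) as higher in the middle. All 35 had the same sign in both sets, which a selection on the mean of the same 2 differences largely fixes in advance. Counting instead unadjusted p-values below 0.05 and keeping the fold, the numbers were 48 for the apex (0.294%) and 28 for the middle (0.172%), and 646 genes had such a p whatever their fold, which is 3.96% of those tested. The SE of the difference had a median of 0.14 over all genes, against 0.12 with the pool as block.

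Most genes differed little between the 2 pieces. The differences of all genes had a median of -0.01 and lay between -0.26 and 0.24 from the 5th to the 95th percentile. In set 1 and set 2 the differences correlated across genes with r = 0.44. By the sign of the mean difference, 7763 of 16306 genes were higher in the apex and 8543 lower. By sign in each set, 29.6% of all genes were higher in the apex in both sets and 33.4% were lower in both. These numbers are the background for every list described here.

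**Figure D1:**
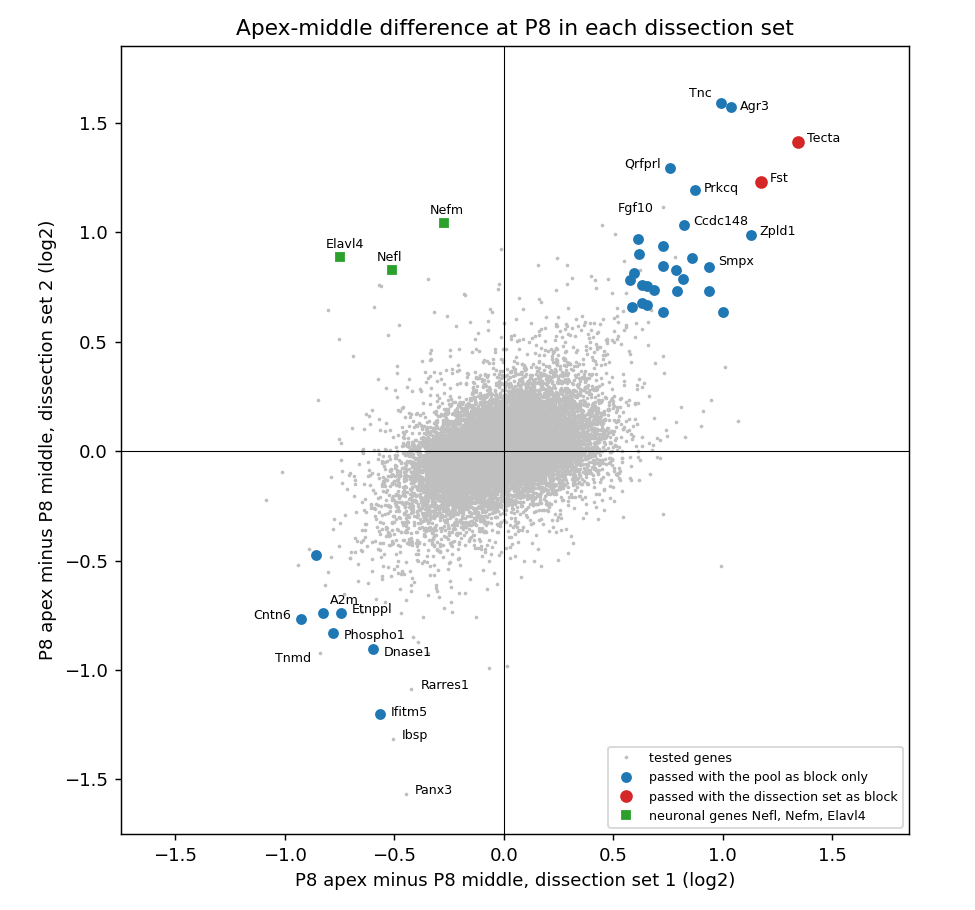
Difference between the P8 apex and the P8 middle (log2) in dissection set 1 (horizontal axis) and set 2 (vertical axis), 1 point per tested gene. The 2 genes that passed with the dissection set as block, Tecta and Fst, lie at 1.34 and 1.41 and at 1.17 and 1.23, the genes that passed only with the pool as block lie away from 0 on both axes, and the neuronal genes Nefl, Nefm and Elavl4 lie below 0 in set 1 and above 0 in set 2.

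The gene with the firmest apical difference was Tecta, which encodes alpha-tectorin, a major non-collagenous glycoprotein of the tectorial membrane. Its log2 signal was 11.26 and 11.55 in the 2 apical arrays and 9.92 and 10.14 in the 2 middle arrays. Both apical arrays were thus above both middle arrays by more than the spread within either group. Here and below, such a separation of 2 against 2 arrays is made likely by choosing genes for a large difference. The share of all genes that separate in this way was not counted. The difference was 1.38 ± 0.11 (SE, n = 2 per group), a 2.6-fold higher signal, with an adjusted p of 0.00176 in limma and of 0.000151 with the pool as block. In the base the signal was lower again, at 8.82 and 8.85 (adjusted p = 0.00369 for the middle against the base), so Tecta climbed over the whole axis. Leaving out each of the 12 arrays in turn kept the call in 11 cases, and without the apical array of set 2 the adjusted p was 0.0515.

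Fst encodes follistatin, a secreted protein that binds activins and some bone morphogenetic proteins (BMPs) and blocks their signal. Its log2 signal was 9.92 and 10.15 in the apex and 8.74 and 8.92 in the middle, again with no overlap. The difference was 1.20 ± 0.14, a 2.3-fold higher signal, with an adjusted p of 0.0316 in limma and of 0.00328 with the pool as block. This call was the less firm one: it held in 2 of the 12 fits that each left out 1 array, those without a P8 base array, and the adjusted p reached 0.328 without the apical array of set 2.

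RefSeq lists 2 transcription starts for Tecta on the minus strand of chromosome 9 (GRCm38.p6), and the 250 bases before each are shown because Tecta carries the clearest difference of the comparison. The windows are chr9:42401691-42401940 for the first and chr9:42399948-42400197 for the second. Capitals mark ACAAAG or its reverse complement CTTTGT, the core of SOX binding sites.
Tecta start 1: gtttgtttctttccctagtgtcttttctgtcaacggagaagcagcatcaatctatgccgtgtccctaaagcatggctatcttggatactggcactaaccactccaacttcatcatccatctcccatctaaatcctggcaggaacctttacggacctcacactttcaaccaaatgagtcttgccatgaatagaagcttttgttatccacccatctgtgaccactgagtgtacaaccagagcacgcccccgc
Tecta start 2: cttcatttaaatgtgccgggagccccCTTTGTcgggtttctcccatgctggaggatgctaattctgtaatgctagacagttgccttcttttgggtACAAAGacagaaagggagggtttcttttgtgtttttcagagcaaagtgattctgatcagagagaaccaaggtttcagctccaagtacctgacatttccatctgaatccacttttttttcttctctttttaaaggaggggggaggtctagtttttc
The first window holds no match to any of the 5 motifs searched, and the second holds 2 matches to the SOX core, 1 in each orientation. Both strands were searched for ACAAAG (SOX), TAATTA (homeobox), CAGCTG (E-box), TGTGGT (RUNX) and AGGTCA (nuclear receptor core), none of which contains another. Over 32851 promoter windows of 250 bases, 16.5% held the SOX core, 4.84% the homeobox core, 13% the E-box, 14% the RUNX core and 14% the nuclear receptor core. Among the 40 windows found for 32 of the 40 genes that the comparison turns on (the 20 largest differences and those that passed with the pool as block), 7, 3, 6, 0 and 5 held them. These are matches of letters only.

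Other genes of the tectorial membrane and of related acellular gels had differences of unlike size. Of 11 genes listed and measured, 1 passed the test (Tecta), and 3 passed with the pool as block (Tecta, Zpld1 and Otogl). Zpld1 encodes a protein with a zona pellucida domain, the domain through which tectorins assemble, and is known from the gel over the vestibular sensory epithelia. It had 8.06 and 7.24 in the apex and 6.93 and 6.25 in the middle, so the groups did not overlap although set 1 lay above set 2 in both. Its difference was 1.06 ± 0.17, with adjusted p = 0.135, and 0.00328 with the pool as block. Otogl encodes otogelin-like, a glycoprotein of the same gels as otogelin. It had 11.48 and 11.22 in the apex and 10.66 and 10.44 in the middle. The difference was 0.80 ± 0.17, with adjusted p = 0.289 and 0.00627 with the pool as block.

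Otog itself, which encodes otogelin, had a difference of 0.43 ± 0.11, and Tectb, which encodes beta-tectorin, one of 0.23 ± 0.14, neither past the test. Tectb had 13.04 and 13.21 in the apex and 12.83 and 12.95 in the middle. The base lay at 11.95 and 11.98, so the larger step on the arrays lay between base and middle (0.92 ± 0.14). By qRT-PCR the study's apex-over-base ratio of Tectb at P8 was larger than on its arrays. Whether high array signals shrink the apical step was not tested. The collagens of the same matrix lay on the other side of 0, with Col9a1 at -0.16, Col9a2 at -0.12, Col9a3 at -0.13 and Col11a2 at -0.12. Ceacam16 (-0.03) and Otoa (-0.02), which encode a late component of the striated-sheet matrix and the protein that anchors the membrane to the limbus, hardly differed. The list as a whole therefore had a median of -0.02, with the 5 glycoproteins with a positive value spread from 0.23 to 1.38.

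**Figure D2:**
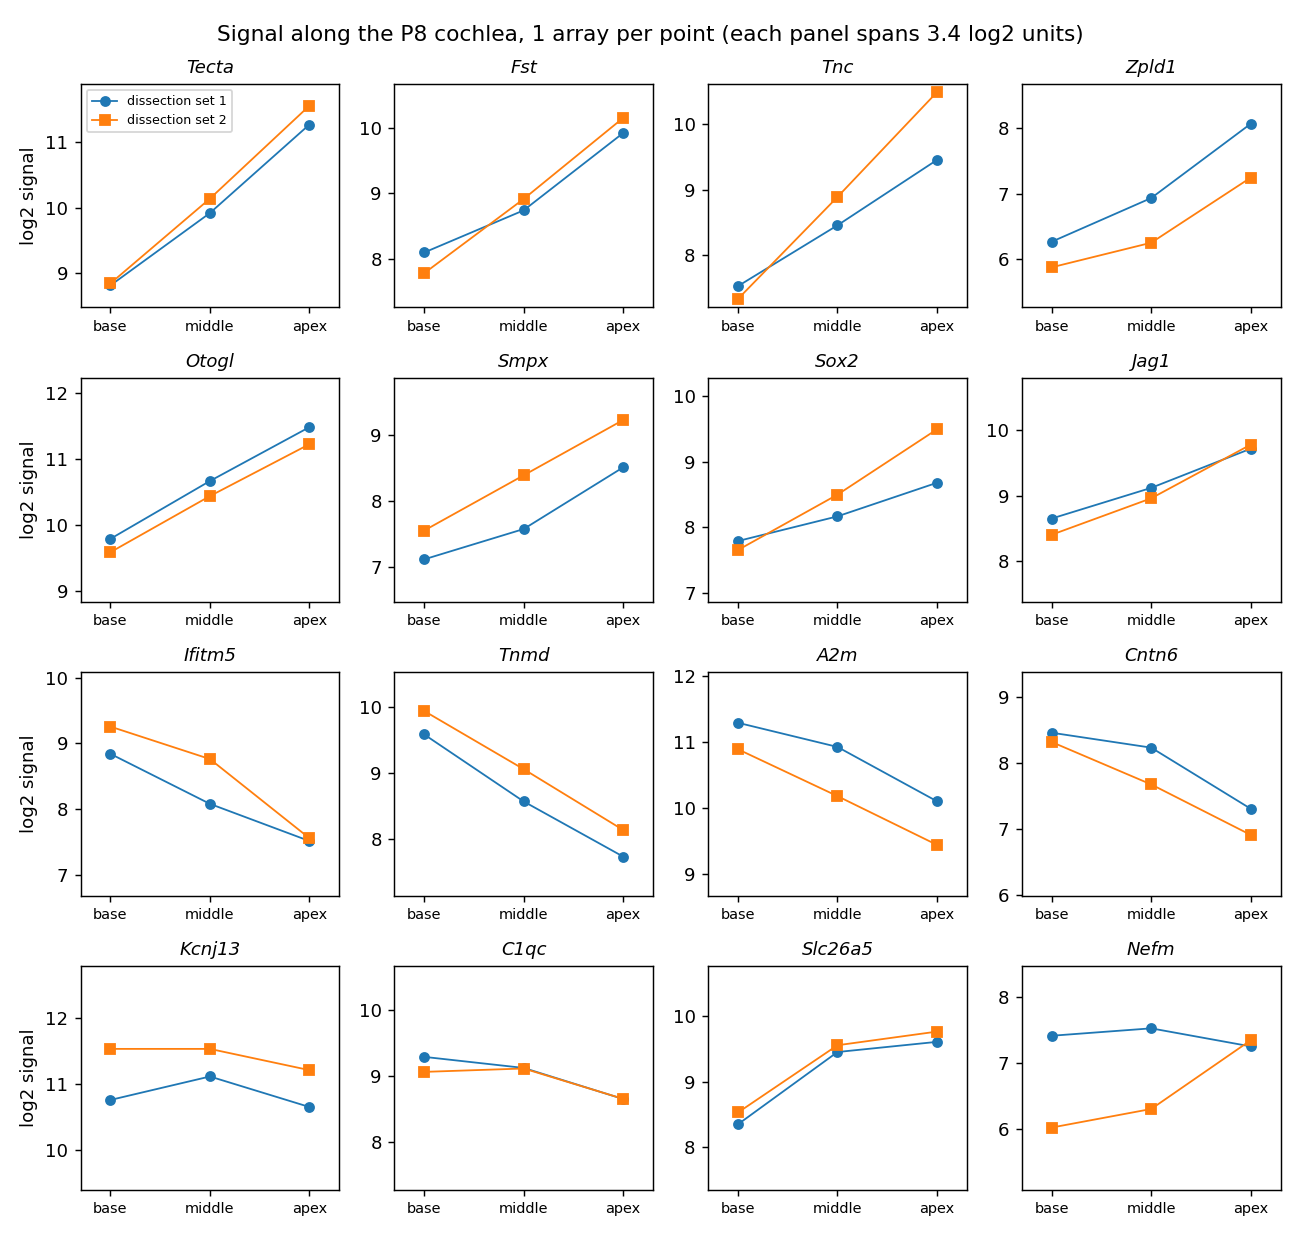
Log2 signal of 16 genes in the base, middle and apex of the P8 cochlea, with 1 line per dissection set and 1 array per point. Tecta climbs to 11.26 and 11.55 in the apex, Slc26a5 lies higher in the middle than in the base and at a like level in the apex, Kcnj13 and C1qc have lower signals in the apex than in the middle in both sets, and the 2 lines of Nefm part, with apical signals of 7.25 and 7.34 against middle signals of 7.53 and 6.30.

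Of 18 genes of the basilar membrane and the tympanic border cells under it, none passed the test, and 2 passed with the pool as block. The first was Tnc, which encodes tenascin-C, a large matricellular glycoprotein of the basilar membrane. It had 9.45 and 10.48 in the apex and 8.46 and 8.89 in the middle, so that the lower apical array lay above the higher middle array. The difference was 0.99 in set 1 and 1.59 in set 2, on average 1.29 ± 0.23 (adjusted p = 0.185 in limma, 0.0204 with the pool as block). The second was Ccn3, a matricellular protein of the CCN family, with 11.61 and 11.26 in the apex and 10.75 and 10.38 in the middle. Its difference was 0.87 ± 0.14 (adjusted p = 0.138, and 0.00627 with the pool as block).

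The rest of the matrix list stayed close to 0 or below it. Fn1 (fibronectin) had 0.25, Emilin2 -0.44, Nid1 -0.26 and Nid2 -0.48, the last encoding nidogens that link laminin to type IV collagen, and the 5 measured type IV collagen chains lay between -0.20 and -0.02. The median was -0.04. Among 25 matricellular proteins and lecticans Smoc2, a calcium-binding matrix protein chosen here after its value was seen, was a further gene past the fold of 1.5, at 0.59 ± 0.15, and the median was 0.00. The large proteoglycans Vcan (-0.42) and Acan (-0.33) and the matrix protein Postn (-0.44) were on the side of the middle. Of 29 collagens 16 were lower in the apex in both sets (55.2%) and the median was -0.08, with Col18a1 (0.35) as the highest.

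The hair cell genes had slightly higher signals in the apex. Of 24 measured, 20 had a positive difference (7763 of 16306 over all genes). In both sets 17 (70.8%) were higher in the apex, against 29.6% of all genes. None passed the test, 2 passed with the pool as block, and the median was 0.19, or 0.08 without the apical array of set 2. Those 2 were Smpx and Rbm24. Smpx encodes a small protein of muscle and hair cells whose loss causes deafness in humans. It had 8.51 and 9.23 in the apex and 7.57 and 8.39 in the middle, so the lower apical array lay only just above the higher middle array, while within each set the apex was higher by 0.94 and 0.84. The difference was 0.89 ± 0.19, with adjusted p = 0.344, and 0.0183 with the pool as block. Rbm24, an RNA-binding splicing regulator of hair cells, had 9.49 and 9.54 against 8.80 and 8.80, with a difference of 0.71 ± 0.10 (adjusted p = 0.105, and 0.0149 with the pool as block).

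Transcription factors of hair cells had smaller positive values in both sets, with Pou4f3 at 0.35, Gfi1 at 0.23, Atoh1 at 0.21, Lhx3 at 0.21 and Barhl1 at 0.11. Otof, which encodes the calcium sensor of the hair cell synapse, had 0.34, and Slc17a8, the vesicular glutamate transporter of inner hair cells, 0.22. Genes of outer hair cell function are given with both steps. Slc26a5 (prestin, the motor of electromotility) had 0.18 ± 0.18 and Ocm (oncomodulin, a calcium buffer) -0.05 ± 0.30 between middle and apex, after steps of 1.06 ± 0.18 and 1.03 ± 0.30 between base and middle. Of the 3 members with the highest signals, Myo6 had 0.00, Calb2 0.05 and Tmprss3 0.15, and Calb2 had opposite signs in the 2 sets (-0.48 and 0.58).

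Genes of the hair bundle had values of a similar size. Of 27 measured, 23 had a positive difference (7763 of 16306 over all genes). In both sets 20 (74.1%) were higher in the apex, and the median was 0.19. None passed the test with either block. Xirp2, an actin-binding protein that maintains stereocilia, had the largest value, 0.81 ± 0.21, with 7.14 and 6.58 in the apex and 6.32 and 5.78 in the middle. Ptprq, a phosphatase of the bundle surface, had 0.44, the scaffold gene Ush1c 0.41, the tip-link cadherins Pcdh15 and Cdh23 0.27 and 0.14, and Fscn2, which crosslinks actin, 0.33. Tmc2, the early transduction channel subunit, had a difference of at least 0.51, since its middle mean lay below 6, while Tmc1, which replaces it during maturation, had -0.06.

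Supporting cell and prosensory genes were also mostly higher in the apex. Of 25 measured, 17 (68%) were higher in the apex in both sets. On the apical side 4 exceeded the fold of 1.5, against 49 of 16306 over all genes. None passed the test and 2 passed with the pool as block, and the median was 0.19. Isl1, a LIM-homeodomain factor of the prosensory domain, had 9.74 and 9.96 in the apex and 9.12 and 9.06 in the middle. Its difference was 0.76 ± 0.14 (adjusted p = 0.206, and 0.0327 with the pool as block). Jag1, the Notch ligand of supporting cells, had 9.71 and 9.77 against 9.12 and 8.96 and a difference of 0.70 ± 0.13 (adjusted p = 0.185, and 0.0235 with the pool as block). In both genes the groups did not overlap.

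Sox2, the transcription factor of sensory progenitors and supporting cells, had 8.68 and 9.49 in the apex and 8.17 and 8.50 in the middle. Its difference was 0.51 in set 1 and 0.99 in set 2, on average 0.75 ± 0.20 (adjusted p = 0.595). Fgf10, a ligand from the fibroblast growth factor family that marks the medial side of the duct, had 8.41 and 9.25 against 7.69 and 8.13 and a difference of 0.92 ± 0.26 (adjusted p = 0.688). Prox1 had 0.49, Aqp4 0.41 and Rorb 0.34. The connexin genes Gjb2 and Gjb6, which encode the gap junction proteins of supporting cells and fibrocytes, were lower in the apex, at -0.20 and -0.29.

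Within the Notch pathway, Jag1 stood alone among 23 genes. The median of the list was 0.02, and 8 genes (34.8%) were higher and 3 (13%) lower in the apex in both sets. The receptors differed in sign, with Notch1 at 0.15 and Notch2 at -0.35. Of the targets, Hes5 had 0.31, Hey1 0.28 and Hes1 -0.20. Among 51 genes of activin, BMP and TGF-beta signalling, Fst was likewise the only gene past the fold of 1.5. The activin subunit Inhba had -0.30 ± 0.14, Inhbb 0.05, the activin receptors Acvr2a and Acvr2b 0.15 and 0.05, and the related antagonists Fstl1 and Fstl3 0.07 and -0.09. The median was 0.01.

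Fgf10 was the only one of 30 genes of fibroblast growth factor signalling past the fold of 1.5, and the median was 0.04. The receptors Fgfr1, Fgfr2 and Fgfr3 had 0.02, -0.05 and 0.16, and the feedback targets Dusp6, Spry2 and Etv5 had 0.07, 0.02 and 0.07. In the Wnt list (45 genes, median 0.05) the secreted antagonists of the frizzled-related family were the highest, with Sfrp1 at 0.58, Frzb at 0.45 and Sfrp2 at 0.38, although Sfrp4 had -0.38. The R-spondin Rspo3, which amplifies Wnt signals, had -0.46, Wnt5a -0.30 and Wnt7a 0.37. None of these genes passed with either block.

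For many neuronal genes the difference changed sign between the sets. Of 28 genes of spiral ganglion neurons, the cells that carry the hair cell signal to the brain, 13 were lower in the apex in set 1 and higher in set 2, and 1 went the other way. Over all genes 3465 of 16306 had the first pattern and 6029 had opposite signs in either order. The list medians were -0.21 in set 1 and 0.20 in set 2. Nefm (neurofilament) had 7.25 and 7.34 in the apex but 7.53 and 6.30 in the middle, a difference of -0.27 in set 1 and of 1.04 in set 2. For Elavl4, an RNA-binding protein of neurons, the 2 differences were -0.75 and 0.89, for Nefl -0.51 and 0.83, for Stmn2 -0.56 and 0.75 and for Snap25 -0.59 and 0.66. The mean log2 level of the 28 genes was 7.56 and 7.35 in the base, 7.74 and 7.53 in the middle and 7.58 and 7.79 in the apex. Synaptic release genes shared the pattern, with 12 of 26 lower in set 1 and higher in set 2, read against the same 3465 of 16306, and Cplx1 at -0.80 and 0.64. In the mean level of the 28 neuronal genes, set 2 thus lay below set 1 in the base and the middle and above it in the apex. What set the sets apart in these genes was not tested.

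Syt1, the calcium sensor of synaptic vesicles, was the 1 gene of either list that passed with the pool as block, at 0.63 and 0.67 in the 2 sets. It had 10.28 and 10.64 in the apex and 9.65 and 9.96 in the middle, a difference of 0.65 ± 0.12 (adjusted p = 0.185, and 0.0241 with the pool as block). Among 46 axon guidance genes the median was 0.01 and none passed. The receptors Epha3 and Robo2 had 0.59 and 0.56 and the repellent Sema3a 0.46, whereas Sema3c and Sema3d had -0.54 and -0.50. The nicotinic receptor subunits of the hair cell's efferent synapse, Chrna9 and Chrna10, had 0.28 and 0.41. Chrna7 had 0.58, and the 13 subunits had a median of 0.13.

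Several apical genes had no place in these lists. Agr3, a protein disulphide isomerase of the secretory pathway, had 6.68 and 9.21 in the apex and 5.64 and 7.64 in the middle, so that the sets lay further apart than the regions. Its difference was 1.30 ± 0.24 (adjusted p = 0.187, and 0.023 with the pool as block). Prkcq, which encodes protein kinase C theta, had 7.85 and 8.64 against 6.98 and 7.45 and a difference of 1.03 ± 0.14 (adjusted p = 0.0739, and 0.00627 with the pool as block). Qrfprl (a receptor gene, 1.03 ± 0.21) and Ccdc148 (0.93 ± 0.14) complete the 10 largest apical values. Further genes that passed with the pool as block were the iron reductase gene Cybrd1 (0.83 ± 0.12), the hyaluronan-binding protein gene Tnfaip6 (0.79 ± 0.14), the secreted glycoprotein gene Stc1 (0.79 ± 0.15), the endopeptidase gene Ecel1 (0.76 ± 0.14), the phospholipase gene Plch1 (0.70 ± 0.14) and the integrin subunit gene Itgb6 (0.62 ± 0.12). The metalloprotease gene Adamts19 (0.81 ± 0.13), Gm9866 (0.83 ± 0.14), Glb1l2 (0.68 ± 0.16), Pla2g4e (0.69 ± 0.12) and Bpifb3, described with the steps, also did. For Il1rapl2 and Cyp2e1 the middle means lay below 6, and their differences of 0.82 and 0.68 are lower bounds.

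Of the 10 genes with the largest values on the side of the middle, Ibsp and Ifitm5 stand in the bone list and Tnmd in the tendon list. Panx3 and Phospho1, in neither list, are described with them for their known roles, a grouping made after their values were seen. Panx3, a channel protein of osteoblasts and hypertrophic chondrocytes, had 9.25 and 9.10 in the middle and 8.81 and 7.54 in the apex. The difference was -0.45 in set 1 and -1.56 in set 2, on average -1.01 ± 0.24 (adjusted p = 0.473, and 0.068 with the pool as block). Ifitm5, an osteoblast membrane protein, had 8.08 and 8.76 against 7.52 and 7.56 (-0.88 ± 0.16, adjusted p = 0.187, and 0.0224 with the pool as block). Phospho1, a phosphatase that starts mineralization, had 8.45 and 9.10 against 7.67 and 8.27 (-0.81 ± 0.29, adjusted p = 0.998, and 0.0466 with the pool as block). Ibsp, which encodes bone sialoprotein, had 11.90 and 11.54 against 11.39 and 10.22 (-0.91 ± 0.39, adjusted p = 1), and Tnmd, the tendon protein tenomodulin, 8.56 and 9.05 against 7.73 and 8.13 (-0.88 ± 0.29, adjusted p = 0.944).

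The bone list as a whole lay on the same side. Of 10 bone genes measured 9 were lower in the apex on average (8543 of 16306 over all genes) and 7 (70%) in both sets. The median was -0.46, at -0.22 in set 1 and -0.65 in set 2. The base held more again, with a mean log2 level of 9.49 and 9.41. In the tendon list the median was -0.17 (-0.08 without the middle array of set 1, -0.29 without that of set 2) and in the cartilage list -0.10, with Mkx (-0.54), Fmod (-0.56), Chad (-0.51) and Ucma (-0.59) as the lowest beside Tnmd. The part that remnants of the otic capsule have in these values was not tested.

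Other genes on the side of the middle had no such annotation. A2m, the protease inhibitor alpha-2-macroglobulin, had 10.93 and 10.18 in the middle and 10.10 and 9.44 in the apex (-0.78 ± 0.20, adjusted p = 0.592, and 0.0327 with the pool as block). Cntn6, a neural adhesion molecule, had 8.23 and 7.68 against 7.31 and 6.91 (-0.85 ± 0.22, adjusted p = 0.592, and 0.0313 with the pool as block). Dnase1, a secreted deoxyribonuclease, had 9.96 and 10.49 against 9.37 and 9.59 (-0.75 ± 0.14, adjusted p = 0.215, and 0.023 with the pool as block). In these 3 genes the groups did not overlap, which their choice for a large difference makes likely. Etnppl, an enzyme of phosphoethanolamine breakdown, had -0.74 ± 0.18 and Arhgef33 -0.67 ± 0.13, both past the test with the pool as block. Rarres1 had -0.75 ± 0.31 and passed with neither.

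Most genes of the stria vascularis had small values on the side of the middle. Of 14 genes of intermediate cells and melanocytes, 13 (92.9%) were lower in the apex in both sets, against 33.4% of all genes, and the median was -0.31 in set 1 and -0.33 in set 2. Dct, an enzyme of melanin synthesis, had 11.90 and 12.01 in the apex and 12.36 and 12.34 in the middle (-0.39 ± 0.11), and Kcnj13, an inward rectifier potassium channel, had -0.39 ± 0.19. Pmel, the fibril protein of melanosomes, had -0.49 and Mitf, the transcription factor of the melanocyte lineage, -0.37. Oca2, a pigment gene of melanosomes, went the other way at 0.43. None passed the test with either block.

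The marginal cells of the stria showed the same order, with 8 of 9 genes lower in the apex in both sets (88.9%) and a median of -0.27, which was -0.15 without the apical array of set 2 and without the middle array of set 1. Kcnq1 and Kcne1, which together form the channel that secretes potassium into endolymph, had -0.33 ± 0.19 and -0.40 ± 0.12, the chloride channel subunit Bsnd -0.28 and the nuclear receptor Esrrb -0.45 ± 0.11. Among basal cell genes Cldn11, the claudin that seals the strial barrier, had -0.34, 5 of 8 were lower in both sets and the median was -0.14. In the neighbouring spiral ligament the median was -0.04. Slc4a10, a bicarbonate transporter, had -0.58 and Emilin2 -0.44, while Coch (-0.05) and Vim (0.19) differed less. Of 12 genes of the outer sulcus and of acid and anion transport (median 0.09), Slc26a4 (pendrin) had 0.42, Aqp5, the water channel of outer sulcus cells, 0.55, and Car12 -0.51.

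Genes of macrophages and blood vessels were also lower in the apex. Of 16 macrophage and leukocyte genes, 14 (87.5%) were lower in both sets and the median was -0.25, with C1qc (complement, -0.47), C1qa (-0.41), Mrc1 (-0.37) and Cd68 (-0.33). C1qc had 8.66 and 8.66 in the apex and 9.13 and 9.12 in the middle. Of 16 endothelial and pericyte genes, 12 (75%) were lower in both sets. The median was -0.20, and it was -0.06 without the apical array of set 2 and -0.13 without the middle array of set 1, with Pecam1 at -0.30, Flt1 at -0.28 and Kdr, a receptor for vascular endothelial growth factor, at -0.27, and with Emcn at 0.17. No gene of either list passed with either block. The lists of red blood cells (4 genes, -0.10), skeletal muscle (17 genes, 0.07) and Schwann cells and myelin (13 genes, 0.04) had medians nearer to 0.

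**Figure D3:**
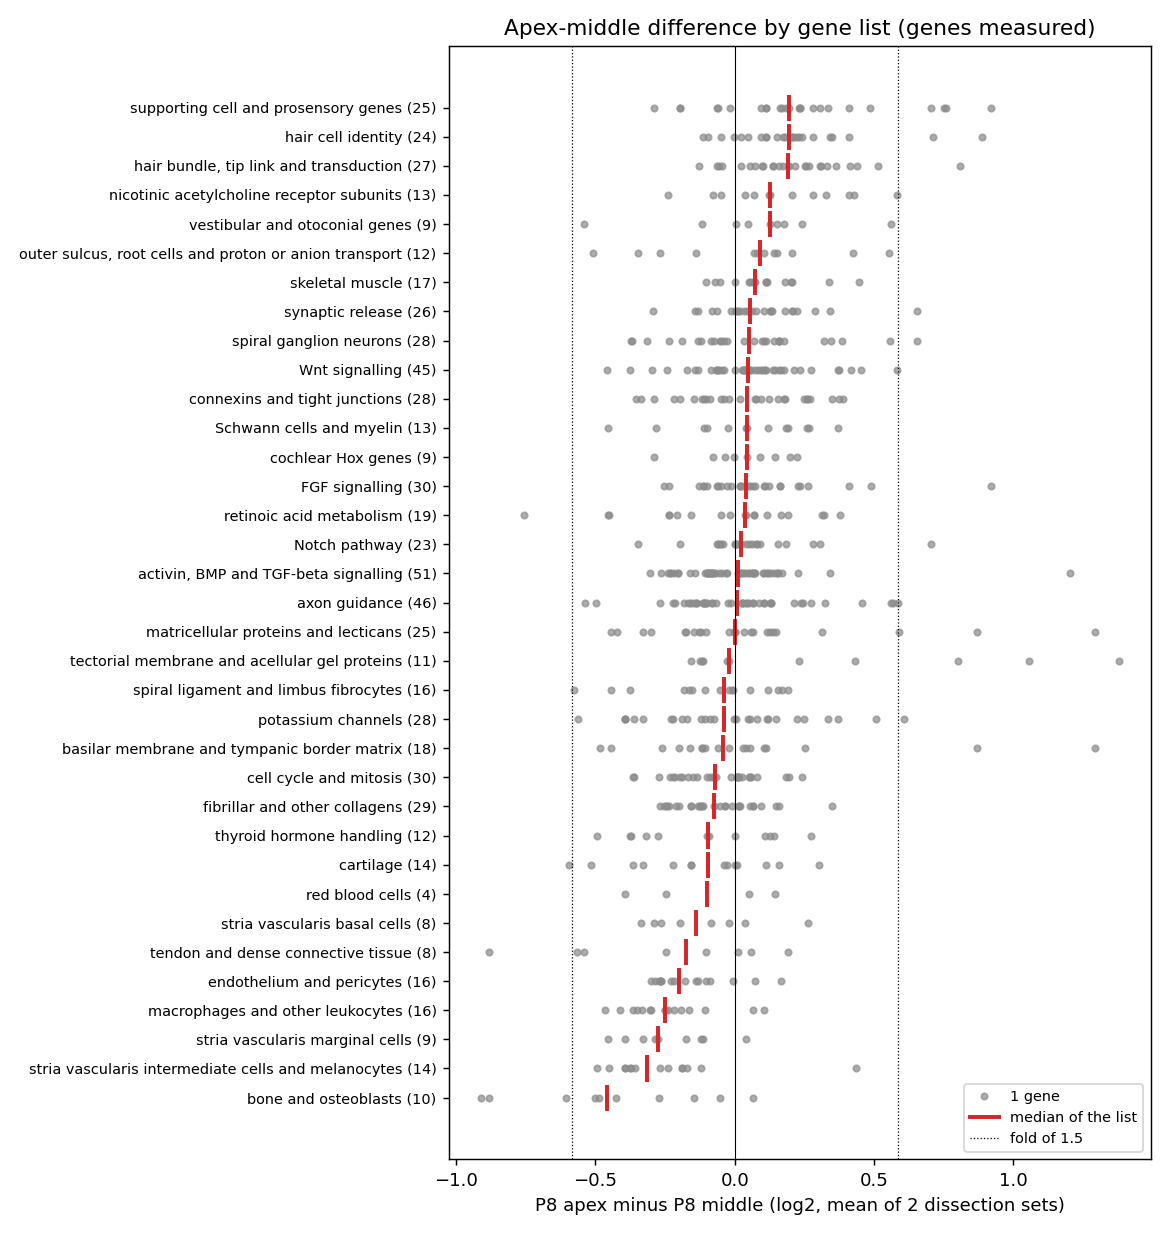
Difference between the P8 apex and the P8 middle (log2, mean of the 2 sets) for the members of 35 gene lists, with 1 point per gene, a bar at the median of each list and dotted lines at a fold of 1.5. Supporting cell, hair cell and hair bundle lists have medians of 0.19, the bone list -0.46, the strial intermediate cell list -0.31 and the macrophage list -0.25, and most other medians lie near 0.

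Other lists had medians between -0.09 and 0.23. Cell cycle genes had -0.07 (30 genes), with Mki67 at 0.01 and Top2a at 0.01, and cochlear Hox genes 0.04 (9 genes). Among 28 potassium channel genes Kcna10, a channel of hair cells and supporting cells, had 0.61 ± 0.15 and Kcnma1, the large-conductance calcium-activated channel, -0.56 ± 0.15, and neither passed. Thyroid hormone genes had a median of -0.09, with the deiodinase genes Dio2 at -0.38 and Dio3 at 0.27 or more, since its middle mean lay below 6. In the retinoic acid list (median 0.04) the synthesizing enzyme Aldh1a2 had -0.45 and the degrading enzyme Cyp26b1 0.38. Connexins and tight junction genes had a median of 0.05 (28 genes), with Gja1 at -0.35. Of 9 vestibular and otoconial genes (median 0.13), Oc90, the main otoconial protein, had 0.56 and Dlx5 -0.54. Of the 23 measured genes that the study took to qRT-PCR or in situ hybridization, 12 were higher and 10 lower in the apex in both sets, 2 passed the test and the median was 0.23. They were chosen on these arrays and are not independent of them.

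The apical step was set against the basal step, the difference between the middle and the base at P8, to see whether the gradient is even along the duct. The basal step held more large differences: 171 genes exceeded a fold of 1.5 between base and middle (102 higher in the middle) against 80 between middle and apex (49 higher in the apex). With the same test 18 genes passed as higher in the middle than in the base and 1 as lower. The middle arrays enter both steps, with opposite sign. In the contrast of the apical step minus the basal step, no gene passed in limma (lowest adjusted p = 0.302). An unadjusted p under 0.05 was found for 244 of 16306 genes, a share smaller than 0.05.

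For several apical genes the 2 steps were close in size. Tecta had 1.38 ± 0.11 and 1.19 ± 0.11, Tnc 1.29 ± 0.23 and 1.24 ± 0.23, Ccn3 0.87 ± 0.14 and 0.95 ± 0.14, Otogl 0.80 ± 0.17 and 0.87 ± 0.17 and Rbm24 0.71 ± 0.10 and 0.68 ± 0.10 for the apical and the basal step. Bpifb3, a gene of the BPI fold family, was an exception, with 0.66 ± 0.17 after -0.51 ± 0.17, so that its middle was the lowest region.

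The gene nearest to the threshold for unequal steps was Chrna3, a nicotinic receptor subunit of neurons. It had 6.27 and 6.58 in the base, 8.20 and 8.56 in the middle and 7.80 and 8.48 in the apex. Its rise thus lay in the basal step (1.95 ± 0.17), and the apical step was slightly negative (-0.24 ± 0.17). The difference between the steps was -2.19 ± 0.30, with an adjusted p of 0.302 in limma, and it passed with the pool as block (adjusted p = 0.001). Genes of the same shape on the arrays, chosen after their values were seen, were Slc26a5 (-0.88 ± 0.31), Slitrk6 (-0.97 ± 0.24), Uchl1 (-0.83 ± 0.22) and Tectb (-0.69 ± 0.24). The difference between the steps did not pass for any of them.

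Strial, macrophage and endothelial lists had the opposite shape, with little change between base and middle. The median of the basal step was -0.03 for intermediate cell genes, -0.09 for marginal cell genes, -0.03 for macrophage genes and 0.01 for endothelial genes, beside apical medians of -0.31, -0.27, -0.25 and -0.20. For the hair cell and supporting cell lists the basal medians were 0.25 and 0.25, beside apical medians of 0.19 and 0.19, and for the bone list -0.37 beside -0.46. These medians are descriptions, and the difference between steps was tested for single genes only.

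Lastly, the same 2 regions were compared at P0. The apex-middle differences at the 2 ages correlated weakly across genes (r = 0.17). At P0, 2 genes passed as higher in the apex and 5 as higher in the middle. For the change of the difference from P0 to P8, 360 of 16306 genes had an unadjusted p under 0.05, a share smaller than 0.05. The change passed for 2 genes, 0.0123% of those tested. The first was Tecta: at P0 it had 12.38 and 12.46 in the apex and 12.30 and 12.47 in the middle, a difference near 0 (0.04 ± 0.11). By qRT-PCR the study's apex-over-base ratio of Tecta at P0 was larger than on its arrays. Whether high array signals hide a difference at P0 was not tested. The change of the Tecta difference on the arrays was 1.34 ± 0.16, with an adjusted p of 0.0342 in limma. In the base its P0 signal was 11.96 and 12.09, so that the signal at P8 was lower in every region, by less in the apex. This call was lost in each of the 12 fits that left out 1 array (adjusted p = 0.107 to 0.376), although the value stayed between 1.26 and 1.42.

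The second was Bpifa1, a secreted BPI fold protein of airway epithelia. At P0 it had 5.90 and 5.71 in the apex and 7.41 and 7.84 in the middle, and at P8 6.03 and 6.05 against 5.59 and 5.88. The P0 apex and the P8 middle thus lay below the limit of 6, so that the P0 difference, the P8 difference (0.31 ± 0.15, which did not pass) and the change are lower bounds in size. The change was at least 2.13 ± 0.21 (adjusted p = 0.0118). Leaving out 1 array kept the call in 5 of 12 fits, and it was lost (adjusted p up to 0.0819) without any of the 4 base arrays, the P8 middle or apex array of set 1 or the P0 middle array of set 2.

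At P0 the values of the other apical genes were graded and did not fall into separate groups. Intermediate values were those of Plch1 (0.37 ± 0.14), Otogl (0.36 ± 0.17), Fgf10 (0.33 ± 0.26), Ccdc148 (0.30 ± 0.14), Qrfprl (0.29 ± 0.21) and Prkcq (0.24 ± 0.14). Bpifb3 lay on the side of the middle (-0.73 ± 0.17). Fst had 1.17 ± 0.14 at P0 beside 1.20 ± 0.14 at P8, and Zpld1 1.49 ± 0.17 beside 1.06 ± 0.17. Tnc (0.07 ± 0.23), Ccn3 (0.05 ± 0.14), Smpx (0.03 ± 0.19), Rbm24 (-0.07 ± 0.10), Agr3 (-0.02 ± 0.24) and Syt1 (-0.08 ± 0.12) had P0 values near 0, but the change did not pass for any of them. Among lists, the hair cell and hair bundle medians at P0 were -0.03 and -0.04, and those of the strial marginal and intermediate cells -0.43 and -0.32. The skeletal muscle and cell cycle lists had 0.39 and 0.31 at P0, beside 0.07 and -0.07 at P8. The bone list had 0.12.

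**Figure D4:**
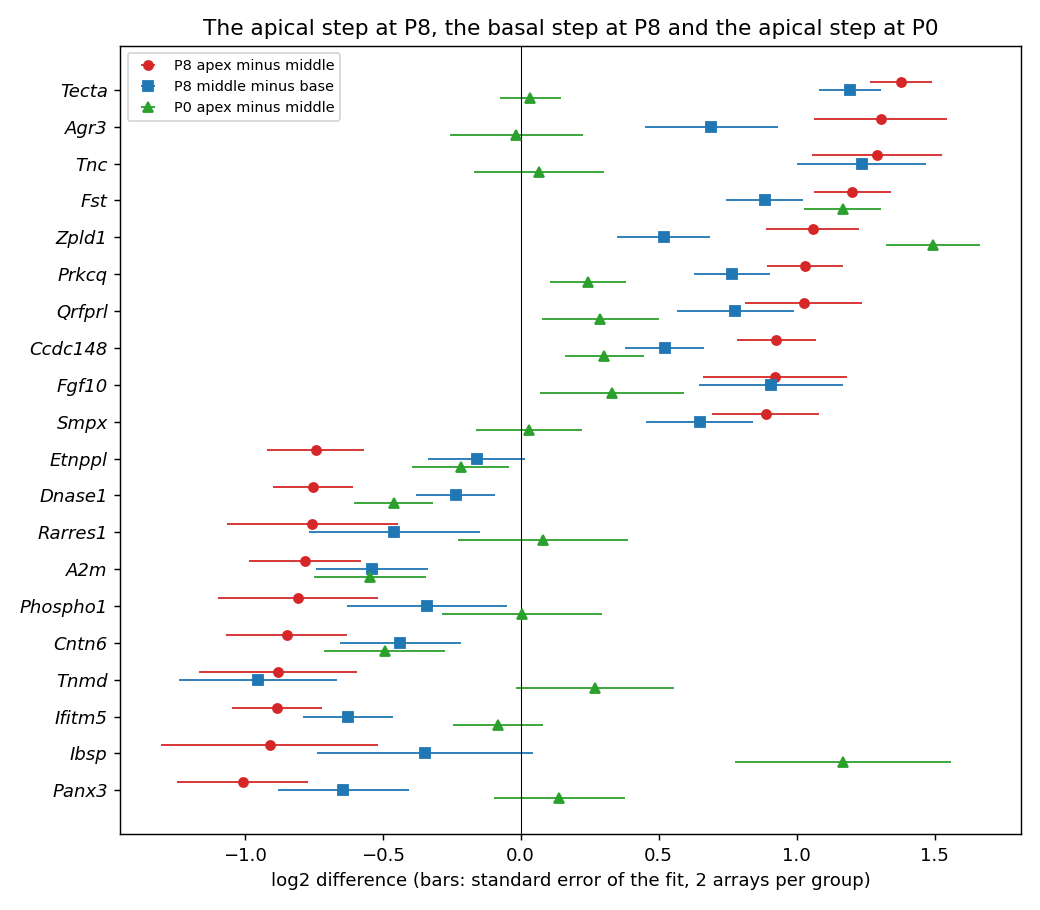
Apical step at P8 (apex minus middle), basal step at P8 (middle minus base) and apical step at P0, as log2 differences with the SE of the fit (2 arrays per group), for the 10 genes with the largest apical step in each direction by the naming rule. Tecta has steps of 1.38 and 1.19 at P8 and 0.04 at P0, whereas Fst and Zpld1 have P0 values of 1.17 and 1.49.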

How the data were processed

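RNA of 12 pooled cochlear samples was hybridized to Affymetrix Mouse Gene 1.0 ST arrays. The authors estimated expression with robust multiarray averaging (RMA), and the deposited values are on the log2 scale. The RMA version, and whether both dissection sets went through 1 run, are not given in the sources used here. Probe-level data were not used. Of 35556 entries, 21789 carried 1 gene symbol, 1621 several and 12146 none, and only the first were used. Each gene was represented by its entry with the highest mean over the 12 arrays, and 16306 genes whose mean exceeded 6 in any group entered the tests. A difference is read only where the apical or the middle mean is above 6.

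Groups and sets came from the sample titles. The 6 group means and the dissection set were fitted with limma 3.58.1 in R 4.3.3 (lmFit and eBayes, 5 residual and 5.76 prior degrees of freedom), tested on simulated data first. The pairing by set comes from the titles, and the study's methods describe pools made separately at each age. Arrays of 1 set shared deviations across genes (r = 0.54 to 0.92 over 15 pairs of groups). The correlation was 0.81 to 0.92 within P8 and 0.54 to 0.75 between ages. The dissection set as block fits 1 shift for both ages, so deviations of the pools of 1 age stay in the scatter. The methods name an unpaired t-test, which is an alternative here, together with no block, the pool of each age as block, the P8 arrays alone, other filters, scalings and row choices, and leaving out each array. With the dissection set as block, p-values rest on the scatter left in all 6 groups after the shift between the sets is removed. That scatter is moderated towards the variance of other genes. The variation between pools that all groups of 1 set share is thus not part of it. Each group holds 2 pools of many animals, and the spread between single animals was not measured. With 2 arrays per group no exact test of a single gene could pass, and the number of arrays limits the precision.

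Named genes are the 10 largest in each direction with an unadjusted p under 0.05, a fold of at least 1.5 and the same sign in both sets, members of lists past the test or with the highest signal, the genes past the contrasts, and others chosen after their values were seen (those that passed with the pool as block, and the largest values of a list). The members, the 36 lists and the tests were chosen with earlier results of these data known. Promoters are from RefSeq (GRCm38.p6). Tables were made with pandas 2.3.3 and numpy 2.4.6 in Python 3.11.15, and figures with matplotlib 3.10.9.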

Additional observations from a re-analysis of the deposited data

Results flagged for a closer look

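The change of the apex-middle difference from P0 to P8 passed the test for Tecta and for Bpifa1 with the dissection set as block. Both calls depended on the processing: with no replicate block neither change passed, and both were sensitive to single arrays, as described above. For Tecta the difference grew by 1.34 on the log2 scale, from 0.04 to 1.38. For Bpifa1 it grew by at least 2.13, from -1.82 to 0.31, where each value is a lower bound in size because the P0 apex and the P8 middle lay below the limit of 6.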

How the results depend on the processing

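The block decided how many genes passed. As higher in the apex, 2 genes passed with the dissection set as block, 0 with no replicate block, 28 with the pool as replicate block and 5 in the fit of the P8 arrays alone. The methods' t-test gave 19 before and 0 after Benjamini-Hochberg adjustment, and an unadjusted p in the same fit 48 (chosen after seeing the data). As higher in the middle, 0 passed with the set as block, 7 with the pool as block, 2 with the P8 arrays alone, 7 by the unadjusted t-test and 28 by an unadjusted p in the same fit. For the step difference 1 gene passed in place of 0 with the pool as block and with the P8 arrays alone. For the change from P0 to P8, 0 genes passed in place of 2 with no block and 4 with the pool as block. Without 1 array the 4 counts ran from 0 to 2, 0 to 1, 0 to 1 and 0 to 2, and without the apical array of set 2 no gene was higher in the apex, while without that of set 1 Agr3 and Panx3 also passed and Fst did not. The filters, scalings, row choice and trend kept Tecta and Fst, and quantile normalization added Prkcq. Over 917 values of 40 genes under these alternatives none changed sign, 15 lost and 41 gained a call. Of 792 list medians 104 moved by more than 1 SD between the sets. The median of the neuronal list ran from -0.14 to 0.18, of the hair cell list from 0.08 to 0.25, of the strial intermediate list from -0.36 to -0.27, of the strial marginal list from -0.40 to -0.15, of the endothelial list from -0.30 to -0.06, of the tendon list from -0.39 to -0.08 and of the bone list from -0.58 to -0.32. The causes were not tested. With 2 arrays per group, the number of arrays limits what can pass.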
